A study of Mus musculus with 30 samples.

Results

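The proteasome subunit genes are the protein-coding mouse genes whose symbol starts with Psma, Psmb, Psmc, Psmd, Psme, Psmf or Psmg followed by a digit. Members were chosen by that name and by their level, 10 counts or more per heart on average in either of the 2 count tables of the series, and no difference between treatment groups entered that rule. The rule found 48 genes among 12028 protein-coding genes at the same minimum, out of 50 genes that carry such a name. The 2 genes left out were Psma8, with mean counts of 2.79 (peptide study) and 3.38 (antibody study), and Psmb11, with 0 counts in both. Just inside the limit in the antibody study only were Psmc3ip, with mean counts of 15.4 there and 9.64 in the peptide study, and Psme2b, with 17.4 and 2.57, and the scarcest member inside it in both was Psmg3, with 27.8 and 15.7. Psmc3ip, which encodes a partner of a proteasome ATPase that acts in meiotic recombination, is a member by name only.

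RNA of the left ventricle of male wild-type C57BL6J mice was measured in a peptide study and a separate antibody study. In the peptide study, mice received daily intraperitoneal injections for 4 weeks of recombinant human Aβ42, the amyloid beta peptide of 42 residues (n = 7), or of ScrAβ42, the same residues in scrambled order (n = 7). The labels give a starting age of 12 weeks and a dose of 1 mg per day, whereas the methods of the study give 10 to 12 weeks and 1 µg per day, and the files do not settle this. In the antibody study, mice received 3D6, an antibody that neutralises Aβ (n = 8), or a control antibody (n = 8). The labels state that mice of both antibody groups had also been given Aβ42, whereas the methods describe mice made obese with a high-fat diet, and this too remains unresolved. Those mice are described as 12 weeks old at a first examination, 1 week before the diet began. Each heart came from a different mouse. The methods describe every RNA sample as a homogenate of left ventricular tissue, in which fewer cells of a type and less RNA per cell cannot be told apart.

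The proteasome degrades proteins marked with ubiquitin and is a main route of protein turnover in heart muscle. Its 20S core is a stack of rings of alpha subunits, which gate the entrance, and beta subunits, some of which cut peptide bonds, and the 19S cap recognises, unfolds and feeds in substrates. In cells exposed to interferon, the immunoproteasome forms when Psmb8, Psmb9 and Psmb10 take the places of the constitutive catalytic subunits Psmb5, Psmb6 and Psmb7, which adjusts the peptides offered to T cells.

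Several members share long stretches with copies elsewhere in the genome, and 2 pairs are shown because genes of this kind held different places in the 2 count tables, as described further on. Each pair sets 90 coding bases of the member beside the matching stretch of the copy, from the transcripts of GENCODE vM21 for GRCm38, written 5′ to 3′, with the base that differs in capitals. Psmb5 (ENSMUSG00000022193) lies at chr14:54614119-54618022 on the minus strand and its processed pseudogene Gm3375 at chr7:3181093-3181888 on the plus strand. Psma5 lies at chr3:108256926-108279974 and its processed pseudogene Gm8394 at chr10:85313488-85314439, both on the plus strand. Over the coding sequence laid side by side without gaps, 75.9% of 795 bases of Psmb5 and 98.9% of 726 bases of Psma5 matched the copy.
Psmb5: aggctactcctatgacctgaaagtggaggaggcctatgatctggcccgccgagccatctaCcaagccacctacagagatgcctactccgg
Gm3375: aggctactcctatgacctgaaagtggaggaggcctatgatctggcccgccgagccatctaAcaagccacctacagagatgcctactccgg
Psma5: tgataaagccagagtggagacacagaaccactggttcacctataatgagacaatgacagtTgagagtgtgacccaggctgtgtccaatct
Gm8394: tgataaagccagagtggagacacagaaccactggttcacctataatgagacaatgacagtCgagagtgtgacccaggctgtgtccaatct

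Across coding sequence, the longest run without a difference was 194 bases between Psmb5 and Gm3375 and 248 bases between Psma5 and Gm8394.

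The peptide study had 4478991 to 6015767 counts per heart, and the antibody study 6397192 to 8310478. Mitochondrial genes held 12.9% to 22.2% and 25.9% to 37.8% of the counts. The 5 cardiomyocyte markers were abundant as a sum in all hearts, with at least 37930 CPM (counts scaled to a common library total). That sum hides differences in single markers. Myl2 ranged from 803.7 to 7137 CPM with Aβ42 (median 6474) and from 3684 to 7380 CPM with ScrAβ42 (median 5856). Atrial markers were also present in part of the samples described as ventricle. Their sum ranged from 12.4 to 8417 CPM with Aβ42 (median 1158) and from 3.82 to 3665 CPM with ScrAβ42 (median 10.5), and 4 adipocyte markers reached 495 CPM with Aβ42 and 48.5 CPM with ScrAβ42. The 4 red cell markers had a median log2 fold change of -1.27 after Aβ42 and summed to 522.7 to 4729 CPM (median 1432), against 741.8 to 14830 CPM (median 3068) with ScrAβ42, and 3 skeletal muscle markers had a median of -0.72. The part of these cells in the differences between the groups was not tested. In the antibody study, the atrial sum ranged from 1.06 to 670.3 CPM with 3D6 (median 98.8) and from 0.825 to 2785 CPM with the control antibody (median 2.89).

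Tested gene by gene, neither treatment was followed by a detectable difference in the RNA of any proteasome gene. The members were not tested as a set. After Aβ42, 0 of 46 members tested passed an adjusted p of 0.05 by the quasi-likelihood test of edgeR (Benjamini-Hochberg over all genes), where 0% of all 11971 genes did. At an unadjusted p under 0.05 there were 0 members, against 6.52% of all genes. After 3D6, 0 of 48 members passed the adjusted threshold, where 0% of 12146 genes did, and 0 had an unadjusted p under 0.05, against 3.66% of all genes. DESeq2 and limma-voom also gave 0 members at both thresholds in both studies, where DESeq2 called 12 of all genes (0.1%) after Aβ42 and 0 after 3D6, and limma-voom 0 in both. At an unadjusted p under 0.05, all genes gave 6.11% and 3.68% in DESeq2 and 5.76% and 3.55% in limma-voom. The 2 groups overlapped for all members tested in both studies, while groups were separate for 0.0919% of all genes after Aβ42 and for 0% after 3D6.

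The 95% interval of the fold change lay within a 1.5-fold change in either direction for 44 of 46 members after Aβ42, against 76.6% of all genes, and for 43 of 48 members after 3D6, against 77.3%. The exceptions after Aβ42 were Psmb9 and Psmg3, and those after 3D6 were Psmb8, Psmb10, Psme2b, Psmg4 and Psmc3ip. The standard error of the log2 fold change had a median of 0.10 over members after Aβ42, against 0.13 over all genes, and of 0.11 after 3D6, against 0.14.

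**Figure D1:**
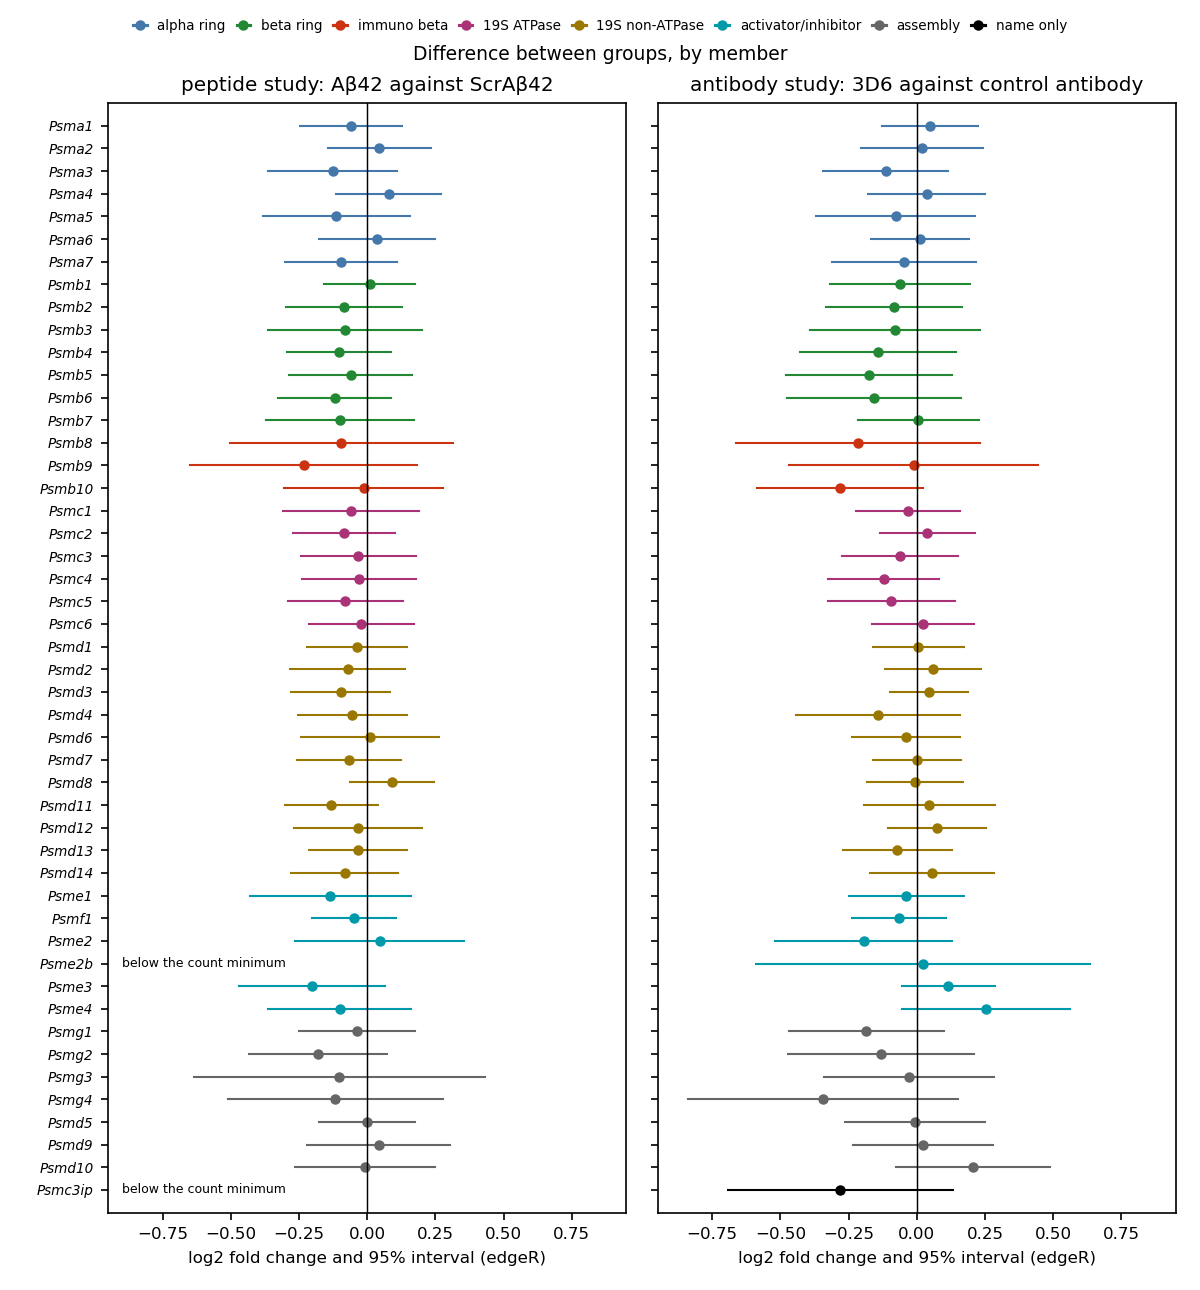
Log2 fold change of each member with its 95% interval from edgeR, by class, in the peptide study (left, Aβ42 against ScrAβ42, n = 7 each) and the antibody study (right, 3D6 against control antibody, n = 8 each). All intervals include 0, and most points of the left panel lie to the left of 0 (38 of 46).

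The direction of the small differences was uneven after Aβ42. The log2 fold change was below 0 for 38 of 46 members, with a median of -0.06, whereas it was below 0 for 49.5% of all genes, with a median of 0.00. After 3D6 it was below 0 for 29 of 48 members, with a median of -0.03, against 52.8% of all genes and a median of -0.01. The members vary together between hearts, so these counts are not counts of independent genes. Without the heart of Aβ42 replicate 5, the count after Aβ42 was 25 of 46, and over the mice left out in turn the median lay between -0.103 and -0.00298, the latter without that heart. With the atrial marker score (the mean standardized log2 CPM of those markers) as a covariate it was 11 of 46, with a median of 0.06, and it was 22 of 46 without the 6 hearts whose atrial score was above 0, an alternative chosen after seeing the data that leaves 2 hearts with Aβ42 and 6 with ScrAβ42. With the mitochondrial share of counts as a covariate, the count after 3D6 was 13 of 48, with a median of 0.04, and with scaling by total counts it was 41 of 48, with a median of -0.08, where 7856 of all 12146 genes were below 0 and their median was -0.06. Single hearts moved many of the values given for single genes. Leaving out 1 heart changed the log2 fold change by over 1.5 times, or its sign, for 7 to 39 of 46 members after Aβ42 (39 without Aβ42 replicate 5) and for 10 to 36 of 48 after 3D6 (36 without control antibody replicate 5).

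The members of each heart did tend to lie high or low together, which can be seen when the log2 CPM of each class is averaged relative to each gene's mean over the study. In the heart of Aβ42 replicate 5, all 7 classes had their lowest value of the Aβ42 group, and the mean over all members was -0.41, against -0.07 in the next lowest heart of that group. This heart also had the lowest mitochondrial share of counts (12.9%) and an atrial score of 1.38. Among the ScrAβ42 hearts, replicate 6 was lowest in 5 of 7 classes, with a mean over members of -0.13, a mitochondrial share of 13.8% and an atrial score of 1.11, the highest of its group. Replicate 7 was highest in 6 of 7 classes in both peptide groups, with means over members of 0.19 and 0.20.

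In the antibody study, the heart of control antibody replicate 8 was lowest in 6 of 7 classes, with a mean over members of -0.22 and the highest mitochondrial share of its group, 37.7%. The heart of 3D6 replicate 8 was lowest in 5 of 7 classes, with a mean of -0.27, a mitochondrial share of 33.9% and an atrial score of 1.22. Over the whole groups the mean was -0.02 ± 0.18 (SD, n = 8) after 3D6, against 0.02 ± 0.14 (SD, n = 8) in its controls, and -0.03 ± 0.19 (SD, n = 7) after Aβ42, against 0.03 ± 0.11 (SD, n = 7). The first principal component of the within-group deviations held 62.5% (peptide study) and 57.6% (antibody study) of the variance of the members, beside 32.5% and 35.9% over all genes. The part of atrial tissue, mitochondrial RNA and library composition in this shared movement was not tested.

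**Figure D2:**
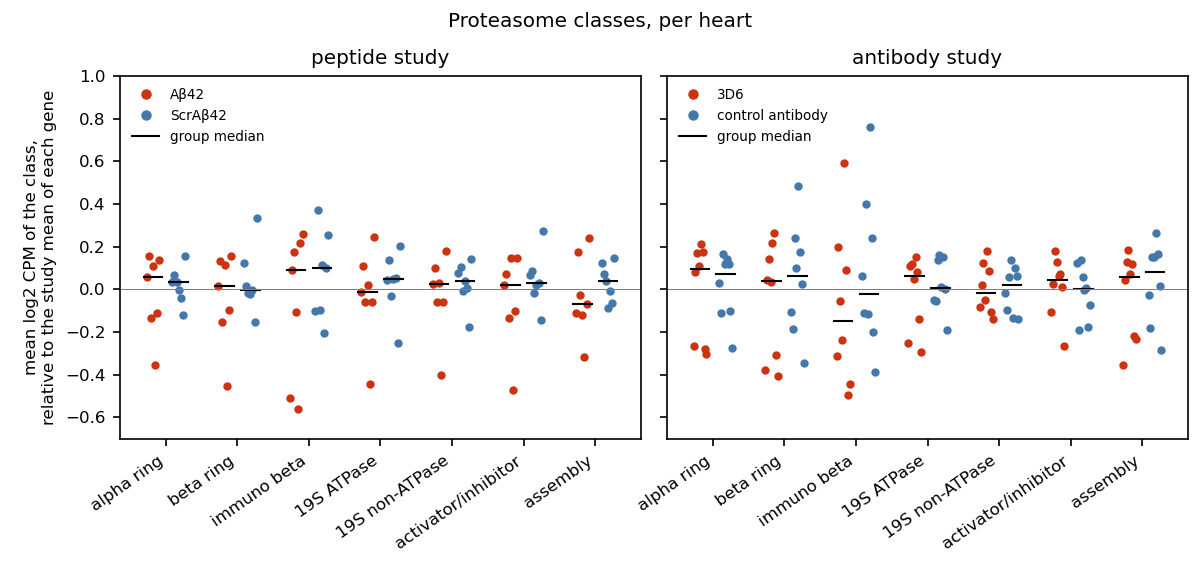
Mean log2 CPM of each proteasome class per heart, relative to each gene's mean over the study, for the peptide study (left) and the antibody study (right). Each point is a heart and each bar a group median; the groups overlap in all classes, and a single Aβ42 heart is lowest in each class of its group.

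The alpha ring genes encode the outer rings of the core, which act as its gate. After Aβ42, 4 of 7 had a negative log2 fold change, between -0.13 and 0.08, and after 3D6, 3 of 7, between -0.11 and 0.05. The count after Aβ42 was 2 of 7 with the atrial covariate, and after 3D6 it was 1 of 7 with the mitochondrial covariate and 7 of 7 with scaling by total counts. Psma4 had the largest positive value of the ring after Aβ42. It ranged from 41.8 to 65.5 CPM with Aβ42 (median 52.5) and from 44.2 to 58.1 CPM with ScrAβ42 (median 50.5), and the log2 fold change was 0.08 ± 0.09 (SE). When the atrial score entered the fit, Psma4 had a log2 fold change of 0.20, as did Psma2, a gene of the same ring picked after its value was seen, and these were the 2 members with an unadjusted p under 0.05 in that fit, where 7.37% of all genes had one. Psma5 lay lower in each Aβ42 heart than the median of the ScrAβ42 hearts, from 7.54 to 12.0 CPM against 8.33 to 13.1 CPM, with a log2 fold change of -0.11 ± 0.13 (SE). After 3D6, Psma5 had a log2 fold change of -0.08 ± 0.14 (SE), with 1 of 8 hearts above the median of the controls.

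The constitutive beta ring holds the cutting sites. After Aβ42 and after 3D6, 6 of 7 genes had a negative log2 fold change, from -0.12 to 0.01 and from -0.18 to 0.01. The count was 1 of 7 after Aβ42 with the atrial covariate, and 1 of 7 after 3D6 with the mitochondrial covariate. Psmb6, the subunit that cuts after acidic residues, ranged from 70.5 to 107 CPM with Aβ42 (median 95.2) and from 93.6 to 129 CPM with ScrAβ42 (median 96.5). Its log2 fold change was -0.12 ± 0.10 (SE), and the Aβ42 hearts spread further down than the controls. After 3D6, Psmb6 ranged from 56.4 to 96.5 CPM (median 76.8), against 58.6 to 133 CPM (median 80.8) in the controls, with a log2 fold change of -0.16 ± 0.15 (SE). Psmb5, which carries the chymotrypsin-like activity, had log2 fold changes of -0.06 ± 0.11 (SE) after Aβ42 and -0.18 ± 0.15 (SE) after 3D6. Psmb7, the trypsin-like subunit, had -0.10 ± 0.13 (SE) and 0.01 ± 0.11 (SE), and without Aβ42 replicate 5 the former was -0.02. Without control antibody replicate 5, the log2 fold change after 3D6 was -0.03 for Psmb6 and -0.08 for Psmb5. Psmb1 and Psmb3, structural subunits of the same ring, had 0.01 ± 0.08 (SE) and -0.08 ± 0.13 (SE) after Aβ42.

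The immunoproteasome genes encode the inducible beta subunits. All 3 had a negative log2 fold change in both studies, with wide intervals. That held for 2 of 3 in either study with the atrial covariate, for 1 of 3 (Psmb10) after 3D6 with the mitochondrial covariate, and for 1 of 3 (Psmb9) after Aβ42 without Aβ42 replicate 5 or ScrAβ42 replicate 2. Psmb10 (ENSMUSG00000031897), at chr8:105935735-105938444, had the smallest p of any member after 3D6. Its level ranged from 15.4 to 25.8 CPM with 3D6 (median 20.3) and from 17.8 to 36.5 CPM with the control antibody (median 23.6). The ranges overlap, with 3 of 8 hearts of the 3D6 group above the median of the controls. The log2 fold change of Psmb10 was -0.28 ± 0.15 (SE), with a 95% interval from -0.59 to 0.02, an unadjusted p of 0.0665 and an edgeR adjusted p of 0.944. It lay between -0.34 and -0.10 over the alternatives, with the value nearest to 0 when the mitochondrial share was a covariate, and it was -0.19 without control antibody replicate 5.

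Psmb8 and Psmb9 lie near each other in the major histocompatibility complex, at chr17:34197721-34201454 and chr17:34181987-34187764. Psmb8 ranged from 6.10 to 17.6 CPM with 3D6 (median 9.41) and from 6.17 to 18.7 CPM in the controls (median 11.7), a log2 fold change of -0.22 ± 0.21 (SE). Psmb9 ranged from 3.40 to 9.47 CPM (median 4.51) and from 3.79 to 9.01 CPM (median 5.09), a log2 fold change of -0.01 ± 0.22 (SE). Without control antibody replicate 5 these were -0.08 for Psmb8 and 0.13 for Psmb9. After 3D6, only 1 of 8 hearts lay above the median of the controls for Psmb8, and 3 of 8 did for Psmb9.

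After Aβ42, Psmb9 had the lowest log2 fold change of all members. It ranged from 2.17 to 5.92 CPM (median 4.55), against 4.06 to 6.29 CPM with ScrAβ42 (median 5.53), with a log2 fold change of -0.23 ± 0.20 (SE) and an unadjusted p of 0.252 in edgeR. Without Aβ42 replicate 1 it was -0.12. The other genes of the exchange stayed closer to 0, with -0.09 ± 0.19 (SE) for Psmb8 and -0.01 ± 0.14 (SE) for Psmb10.

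Because an immunoproteasome subunit replaces a particular constitutive one, the log2 ratio of each such pair was compared per heart, with 1 CPM added to both terms. These were 6 comparisons, each a two-sided exact permutation test. In the antibody study, the ratio of Psmb10 to Psmb7 ranged from -1.85 to -1.44 with 3D6 and from -1.61 to -0.76 with the control antibody. The means were -1.59 ± 0.16 (SD, n = 8) and -1.33 ± 0.26 (SD, n = 8), and none of the 3D6 hearts lay above the median of the controls. The difference of -0.25 had an exact permutation p of 0.0222, and 0.133 after Benjamini-Hochberg adjustment over the 6 ratios, so it did not pass the threshold. Leaving out each mouse in turn gave differences of -0.30 to -0.17, with exact permutation p-values of 0.00591 to 0.0444 before adjustment.

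The other ratios differed less between groups than among hearts. In the antibody study the ratio of Psmb9 to Psmb6 was 0.11 higher with 3D6 (exact permutation p = 0.471) and that of Psmb8 to Psmb5 differed by -0.01 (exact permutation p = 0.936). In the peptide study the differences were -0.03 for Psmb8 to Psmb5, -0.09 for Psmb9 to Psmb6 and 0.09 for Psmb10 to Psmb7, with exact permutation p-values of 0.868, 0.649 and 0.419. Over the mice left out in turn, the difference for Psmb9 to Psmb6 after 3D6 ranged from 0.0289 to 0.182. That for Psmb10 to Psmb7 after Aβ42 ranged from 0.0325 to 0.135.

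**Figure D3:**
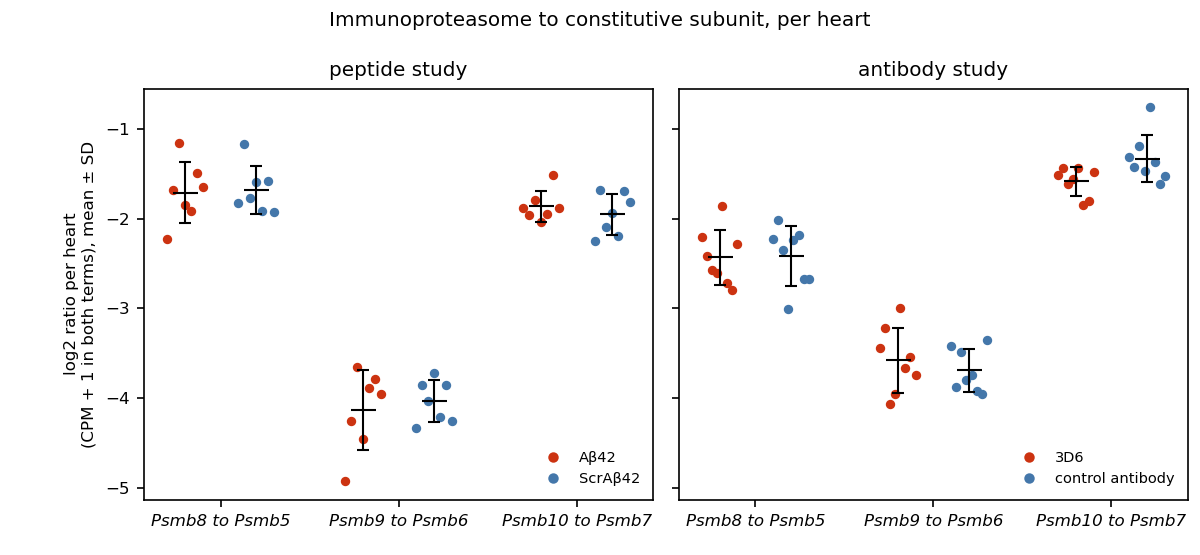
Log2 ratio of each immunoproteasome subunit to the constitutive subunit it replaces, per heart, with mean and SD, for the peptide study (left, n = 7 each) and the antibody study (right, n = 8 each). Only for Psmb10 to Psmb7 in the antibody study do all treated hearts lie at or below the median of the controls, and the ranges still overlap.

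Genes that interferon induces together with the immunoproteasome were counted beside it. Of 12 genes of antigen presentation, such as Tap1, B2m and H2-K1, 11 had a negative log2 fold change after 3D6, against 52.8% of all genes. Their median was -0.16, and 0 had an unadjusted p under 0.05. After Aβ42, 6 of 12 had a negative log2 fold change, against 49.5% of all genes, with a median of 0.01. Genes induced together are not independent counts. Values with the covariates or with mice left out are not reported here for this list. Of the leukocyte markers tested, 5 of 6 had a negative log2 fold change after 3D6, as did 5 of 6 after Aβ42. The sum of all 8 leukocyte markers was 85.7 to 153 CPM with 3D6 and 94.1 to 169.9 CPM with the control antibody, so leukocyte RNA was present in all hearts. The 3 endothelial markers also had a negative log2 fold change after 3D6, with 1 at an unadjusted p under 0.05, and summed to 446.8 to 595.9 CPM, against 494.6 to 658 CPM. Negative log2 fold changes after 3D6 were also found for 3 of 3 fibroblast, 4 of 4 red cell and 4 of 5 cardiomyocyte markers. In these lists, 0 markers had an unadjusted p under 0.05. The 4 atrial markers tested had negative log2 fold changes although their summed level had the higher median with 3D6, at 98.8 against 2.89 CPM, and 1 control heart reached 2785 CPM. The part of the content of any of these cells in the values of Psmb10 was not tested.

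In the 19S cap, the ATPases form the ring that unfolds substrates. All 6 had a negative log2 fold change after Aβ42, from -0.08 to -0.02, but 0 of 6 did with the atrial covariate and 2 of 6 without Aβ42 replicate 5. After 3D6, 4 of 6 were below 0, from -0.12 to 0.04. That count was 2 of 6 with the mitochondrial covariate and 6 of 6 with scaling by total counts. Psmc3 was the most abundant ATPase gene. It ranged from 128 to 214 CPM with Aβ42 and from 166 to 212 CPM with ScrAβ42, a log2 fold change of -0.03 ± 0.10 (SE), and after 3D6 the log2 fold change was -0.06 ± 0.10 (SE). Psmc6, the scarcest per length, had -0.02 ± 0.09 (SE) and 0.02 ± 0.09 (SE).

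The non-ATPase subunits of the cap hold the ubiquitin receptors and the deubiquitinase. After Aβ42, 9 of 11 had a negative log2 fold change, between -0.13 and 0.09, and after 3D6, 4 of 11, between -0.14 and 0.07. The count after Aβ42 was 2 of 11 with the atrial covariate and 6 of 11 without Aβ42 replicate 5, and after 3D6 it was 7 of 11 with scaling by total counts and 2 to 7 of 11 over the mice left out. Psmd8 had the highest log2 fold change of all members after Aβ42. It ranged from 81.0 to 104 CPM with Aβ42 (median 93.2) and from 78.7 to 102 CPM with ScrAβ42 (median 83.1), a log2 fold change of 0.09 ± 0.07 (SE), and after 3D6 the value was -0.01 ± 0.08 (SE). Psmd3, a scaffold subunit, lay below the median of the ScrAβ42 hearts in each Aβ42 heart. It ranged from 103 to 148 CPM with Aβ42 and from 116 to 157 CPM with ScrAβ42 (median 151), a log2 fold change of -0.10 ± 0.08 (SE), which was -0.04 without Aβ42 replicate 5. Psma5 and Psmd3 were the 2 of 46 members tested for which this held, against 3.81% of all genes, so the count is near the background. After 3D6 it held for 0 of 48 members, against 2.48% of all genes.

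Other non-ATPase subunits had similarly small values. Psmd4, a ubiquitin receptor, had -0.06 ± 0.09 (SE) after Aβ42 and -0.14 ± 0.14 (SE) after 3D6, and -0.00233 and -0.06 without replicate 5 of Aβ42 and of the control antibody. Psmd14, the deubiquitinase that removes ubiquitin chains at the cap, had -0.08 ± 0.09 (SE) and 0.06 ± 0.11 (SE). Psmd3 was also the steadiest member of the antibody study, with a within-group SD of 0.09 on the log2 CPM scale, against a median of 0.23 over members and 0.28 over all genes.

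The activators open the core without the 19S cap. Among them, Psme3 and Psme4 had opposite signs in the 2 studies, negative after Aβ42 and positive after 3D6. Members of other classes had the same signs, among them Psmd2, Psmd10 and Psmd12. Of all members tested, 38 of 46 were negative after Aβ42 and 19 of 48 positive after 3D6. The negative sign did not hold for Psme4 with the atrial covariate, at 0.10, nor for Psme3 without the hearts with an atrial score above 0, at 0.01. Psme4 (ENSMUSG00000040850), the gene of a large nuclear activator, had the highest log2 fold change of all members after 3D6. It ranged from 159 to 237 CPM with 3D6 (median 181) and from 95.4 to 212 CPM with the control antibody (median 170.1). The log2 fold change was 0.25 ± 0.15 (SE), with a 95% interval from -0.05 to 0.56, an unadjusted p of 0.0996 and an edgeR adjusted p of 0.944, and 6 of 8 hearts lay above the median of the controls. With the mitochondrial share as a covariate the value was 0.10. After Aβ42, Psme4 ranged from 267 to 476 CPM, against 325 to 458 CPM, with a log2 fold change of -0.10 ± 0.12 (SE).

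Psme3, the gene of the nuclear activator PA28γ, showed a similar pattern at a lower level. It ranged from 38.5 to 44.3 CPM with 3D6 (median 41.8) and from 29.2 to 43.7 CPM in the controls (median 39.2), a log2 fold change of 0.12 ± 0.08 (SE), with 7 of 8 hearts above the median of the controls. After Aβ42, it ranged from 51.4 to 78.0 CPM (median 70.9), against 63.7 to 111 CPM (median 72.6), a log2 fold change of -0.20 ± 0.13 (SE), which was -0.10 without ScrAβ42 replicate 7. Psme4 after Aβ42 was -0.03 without Aβ42 replicate 5. The studies used different mice, treatments and tables, and the difference between their effects was not tested.

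The other activator genes encode PA28α and PA28β, which interferon induces. Psme1 had log2 fold changes of -0.13 ± 0.14 (SE) after Aβ42 and -0.04 ± 0.10 (SE) after 3D6, and Psme2 had 0.05 ± 0.15 (SE) and -0.19 ± 0.16 (SE). Psme1 after Aβ42 was -0.04 without Aβ42 replicate 5, and Psme2 after 3D6 was -0.09 without control antibody replicate 5. Psme2b was tested only in the antibody study, where it ranged from 0.851 to 3.27 CPM with 3D6 and from 1.09 to 4.40 CPM in the controls, with a log2 fold change of 0.02 ± 0.29 (SE). It was also the most variable member there, with a within-group SD of 0.59.

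The assembly factors are chaperones that leave the finished particle. After Aβ42, 6 of 7 had a negative log2 fold change, between -0.18 and 0.04, and after 3D6, 5 of 7, between -0.34 and 0.21. The count after Aβ42 was 2 of 7 with the atrial covariate and 3 of 7 without Aβ42 replicate 5, and after 3D6 it was 3 of 7 with the mitochondrial covariate or without 3D6 replicate 1. Psmg2, a chaperone of the alpha ring, ranged from 13.5 to 22.97 CPM with Aβ42 (median 18.6) and from 18.6 to 23.4 CPM with ScrAβ42 (median 20.5), a log2 fold change of -0.18 ± 0.12 (SE). Psmg4, another chaperone of that ring, had the lowest log2 fold change of all members after 3D6. It ranged from 1.76 to 4.98 CPM with 3D6 (median 3.37) and from 2.20 to 7.15 CPM in the controls (median 3.901), a log2 fold change of -0.34 ± 0.24 (SE) with a 95% interval from -0.84 to 0.15. With the mitochondrial share as a covariate it was -0.03, and without control antibody replicate 5 it was -0.20.

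Psmd10, a chaperone of the cap also known as gankyrin, had 0.21 ± 0.13 (SE) after 3D6, from 4.65 to 7.48 CPM against 3.96 to 6.60 CPM, with 6 of 8 hearts above the median of the controls. After Aβ42 it had -0.01 ± 0.12 (SE). Psmg3 and Psmd5 had -0.10 ± 0.25 (SE) and 0.00 ± 0.08 (SE) after Aβ42, and -0.03 ± 0.15 (SE) and -0.01 ± 0.12 (SE) after 3D6. Psmc3ip, the member by name only, had -0.28 ± 0.20 (SE) after 3D6, from 1.35 to 2.91 CPM against 1.76 to 3.38 CPM.

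Other genes of the pathway were taken from a list of 36 genes, of which 33 were tested after Aβ42 and 34 after 3D6. After Aβ42, 24 of 33 had a negative log2 fold change, with 2 at an unadjusted p under 0.05, both lower, which is near the 6.52% of all genes, and after 3D6, 12 of 34, with 0 at that level. In neither study did any pass the adjusted threshold. Nfe2l1, the gene of a transcription factor that drives proteasome genes, had -0.14 ± 0.08 (SE) after Aβ42 and 0.21 ± 0.13 (SE) after 3D6, with 1 of 7 and 7 of 8 treated hearts above the median of their controls. Without Aβ42 replicate 5, the log2 fold change of Nfe2l1 after Aβ42 was -0.09.

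A promoter is shown because Psme4 had the highest value after 3D6 and its promoter holds both letter patterns described here. RefSeq promoters for GRCm38.p6, 250 bases before to 50 bases after the start, were present for 41 of 48 members, and the shares of 6 letter patterns, searched on both strands, are given, where matches of different patterns may overlap. TGACNNNGC, the core of the element that Nfe2l1 binds, occurred in 6 of 41 members (14.6%) and in 14.0% of 27025 genes. CCGGAAGT, an ETS-type site, occurred in 9 of 41 members (22.0%) and in 4.31% of genes, and was picked after the shares were seen. The 27025 genes were not filtered by their counts in these hearts, whereas the members were, so the shares are not matched for level. The pattern TTCNNNGAA occurred in 7.32% of members and 9.55% of genes. The pattern CCAAT occurred in 34.1% and 41.1%. The pattern GGTGGG occurred in 31.7% and 34.6%, and TGACGTCA in 0 members and 2.03% of genes. Beside these 6, another 3 longer patterns had been searched and are not reported here. Psme4 and Psmd12 were the members with both. In the promoter of Psme4 at chr11:30771525-30771824, plus strand, capitals mark the matches, the first an ETS-type match and the other the reverse complement of TGACNNNGC.
Psme4: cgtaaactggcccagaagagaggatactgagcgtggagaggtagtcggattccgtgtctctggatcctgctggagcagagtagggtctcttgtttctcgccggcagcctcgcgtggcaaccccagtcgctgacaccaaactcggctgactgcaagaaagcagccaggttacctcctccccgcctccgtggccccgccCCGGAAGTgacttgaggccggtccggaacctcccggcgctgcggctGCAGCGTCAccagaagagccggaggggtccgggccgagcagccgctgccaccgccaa
A match is a run of letters in this window and no evidence of binding.

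Per length of transcript, the core and the cap held the most abundant genes. Levels are mean CPM per kb over all hearts of a study. The length was averaged over transcripts by their counts in the antibody study and used for both studies, because the peptide study has counts per gene only. In the peptide study, the highest level of the beta ring was that of Psmb6 (123 CPM per kb) and of the alpha ring that of Psma6 (101.4), and Psmc3 (120.2) led the ATPases and Psmd4 (89.8) the other cap genes. Psme1 led the activators with 66.4 and Psmg2 the assembly factors with 18.7. The lowest were Psma5 (8.57) in the alpha ring, Psmb3 (22.6) in the beta ring, Psmc6 (44.5) and Psmd14 (24.4) in the cap, and Psmg3 (2.88) among assembly factors. Psma5 and Psmb3 share long stretches with other genes and had higher levels in the antibody study, as described further on. Of the immunoproteasome genes, Psmb10 stood at 20.5, Psmb8 at 6.18 and Psmb9 at 3.11.

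The antibody study gave the same leaders in part. Psmb6 was again highest in the beta ring (100.2 CPM per kb), Psmc3 among ATPases (77.5), Psme1 among activators (58.7) and Psmg2 among assembly factors (10.97), while Psma7 (52.8) led the alpha ring and Psmd3 (49.6) the other cap genes. The lowest were Psma5 (18.3), Psmb1 (36.8), Psmc6 (22.8), Psmd14 (14.6) and Psmd5 (2.47). Psmb10, Psmb8 and Psmb9 kept their order, at 19.5, 9.55 and 3.52 CPM per kb. With the longest coding transcript as the length, the rank within the class differed for 14 of 48 members (peptide study) and 10 of 48 (antibody study). With that length, Psmd7 led the other cap genes in the peptide study and Psma4 the alpha ring in the antibody study, and Psma3 was lowest in the alpha ring in both.

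**Figure D4:**
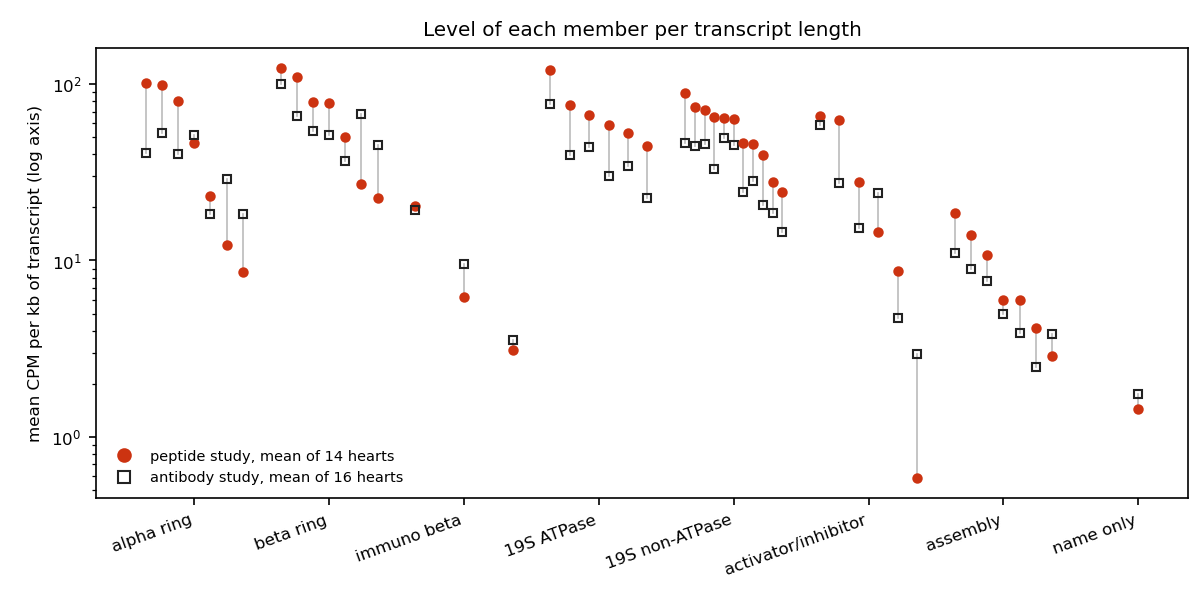
Mean level per kb of transcript for each member, by class, on a log axis, in the peptide study (filled circles) and the antibody study (open squares), joined by a line for each gene. Most squares lie below their circles, while a few genes, among them Psmb5 in the beta ring (27.0 and 67.4 CPM per kb), have the opposite order.

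Psmb5 held a different place in each table. It ranked 6 of 7 in the beta ring in the peptide study, at 27.0 CPM per kb, and 2 of 7 in the antibody study, at 67.4. The tables were normalized separately and come from different mice, so the ratio of their levels is a description with no test. The log2 ratio of mean CPM, antibody to peptide, was 1.32 for Psmb5, 1.10 for Psma5, 1.00 for Psmb3 and 0.74 for Psme2, whereas the median over the 31 members with little shared sequence was -0.73.

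What these members have in common is sequence found in other genes. Of all 31-base stretches of their coding transcripts, those also present in transcripts of other genes made up 71.7% for Psmb5, 66.9% for Psmb3, 64.0% for Psma5 and 62.6% for Psme2. They are the 4 members tested in both studies with a share over 60%. Among members with a share of at most 5%, 2 of 31 had a log2 ratio above 0, Psmb8 (0.63) and Psmb9 (0.18). There were exceptions, since Psma3 had a ratio of 1.25 with a share of 27.3%, and Psmd2 and Psmc1 had ratios of -0.63 and -0.60 with shares of 44.4% and 39.7%.

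Other genes had the same arrangement. Among genes that are not members, those with a share over 60% had a median log2 ratio of 1.76 (n = 121, 80.2% above 0), and those with at most 5% had -0.66 (n = 9320, 11.2% above 0). The copy of Psmb5 had few counts of their own, with Gm3375, the 1 gene sharing at least 100 such stretches with Psmb5, at 0.168 CPM (peptide study) and 0.0539 CPM (antibody study), and Psme2b, the 1 such gene for Psme2, at 0.491 and 2.48 CPM. Per the methods of the study, reads were assigned to transcripts by Salmon. How transcript values were summed to the gene counts of the peptide study was not given. The part of either step in these ratios was not tested. Comparisons between groups within a table are made between hearts counted in the same way.

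**Figure D5:**
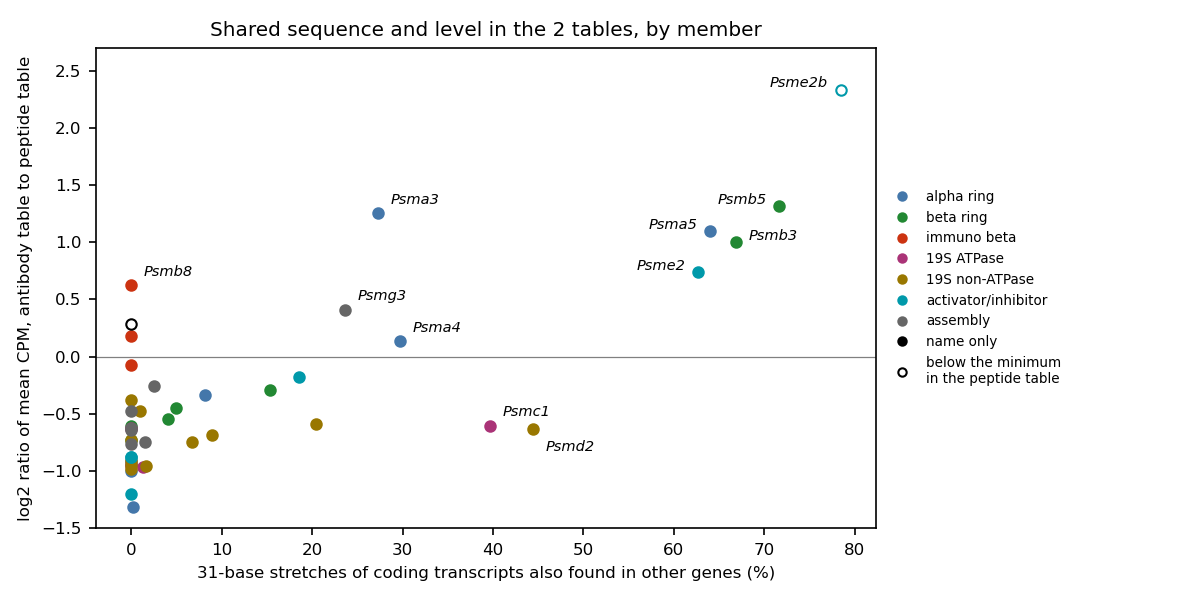
For each member, the share of 31-base stretches of its coding transcripts that also occur in other genes (horizontal, %) and the log2 ratio of its mean CPM in the antibody table to that in the peptide table (vertical). The members with shares over 60% all lie above 0, and most members with shares near 0 lie below it.

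The transcript table of the antibody study gives the isoforms. A single transcript held over 90% of the estimated counts of 32 of 48 members, and the leading transcript was of the protein-coding type in all 48. The genes with the most divided counts were Psma3, whose leading transcript held a median of 42.4%, Psmb8 with 53.6% and Psmb9 with 58.0%. Of 73 transcripts of members tested, 3 had an unadjusted p under 0.05 after 3D6, against 2.41% of all 20729 transcripts, and 0 passed the adjusted threshold in edgeR.

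All 3 were lower with 3D6. Psmf1-202, of the proteasome inhibitor PI31, had 18 to 38 estimated counts with 3D6 (median 28.5) and 25 to 50 with the control antibody (median 38.5), and its median share of the gene was 28.2% and 36.2%. The log2 fold change of Psmf1-202 was -0.48 ± 0.19 (SE), with an unadjusted p of 0.0187. Psmc4-205, a retained intron, had medians of 6 and 10.5 counts. Psmc3-203 had 0 counts in 15 of 16 hearts and 179 in a single control heart, so its value rests on that heart.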

How the data were processed

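Libraries were made from total RNA of the left ventricle. Per the methods of the study, the authors quality-trimmed the reads and quantified them by Salmon against the transcriptome of GENCODE vM24, and the submitters' processing notes name the build GRCm38. The authors deposited whole-number counts per gene for the peptide study, not normalized, and how these were summed from transcripts is not given in the sources used here. The other table deposited by the authors, of the antibody study, holds estimated counts for each transcript, which were summed to genes through GENCODE vM21 (99.2% of transcripts matched; 0.381% of the counts fell on others) and rounded. A count column of the peptide table matched no labelled sample (1 in all) and was not used.

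Each study was fitted separately in edgeR 4.0.16 (R 4.3.3) on genes whose counts averaged 10 or more over the hearts, with TMM factors, the quasi-likelihood test, two-sided, and Benjamini-Hochberg adjustment over all genes tested. CPM use TMM-scaled totals, and log2 CPM a prior count of 2. Intervals are at 95%. The sampling error of low counts limits the precision of the scarcest members. Subunit ratios were compared with exact permutation tests in scipy 1.17.1. No 2 hearts of a group were alike within sampling noise (chi-square per degree of freedom at least 3.29).

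Genes were named by rule: members with an unadjusted p under 0.05, the 3 largest and 3 smallest log2 fold changes per study, the catalytic subunits and their immunoproteasome counterparts, the highest and lowest member per length of each class, and Nfe2l1. Pathway genes with an unadjusted p under 0.05, which the rule also names, are not reported here by name. The members, lists and tests were chosen with earlier results of these data known. Alternatives were DESeq2 1.42.0, limma-voom 3.58.1, RLE factors, scaling by total counts, no filter on low counts, the atrial score or mitochondrial share as a covariate, protein-coding transcripts only, other pseudocounts, and leaving out each mouse. Leaving out the hearts with an atrial score above 0 was added after seeing the data.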

Additional observations from a re-analysis of the deposited data

Results flagged for a closer look

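Among 136 groups of values examined (named genes, subunit ratios and the mean over members in each group of hearts), 7 held a heart whose distance from its nearest neighbour was large for the range of its group, and chance flags about 1 in 20 groups. In the Aβ42 group, a heart was low for Psmd3 at 103 CPM, the next at 135. In the ScrAβ42 group, a heart was high for Psmb6 at 129 CPM, the next at 103, and hearts were low for Psme4 at 325 CPM and for Nfe2l1 at 700 CPM. In the 3D6 group, a heart was high for Psmb8 at 17.6 CPM, the next at 10.5. In the control antibody group, a heart was high for Psmb6 at 133 CPM, the next at 90.4, and another was low for Psmc6 at 32.6 CPM, the next at 44.6.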

How the results depend on the processing

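No member passed the adjusted threshold in either study under any alternative that was run. Members with an unadjusted p under 0.05 were 2 after Aβ42 with the atrial covariate (Psma2 and Psma4, against 7.37% of all genes), 1 without the hearts with an atrial score above 0 (Psma2, against 4.32%), and 0 to 1 when each mouse was left out (Psmd11 without ScrAβ42 replicate 6, against 10.6%). After 3D6 they were 1 with scaling by total counts (Psmb10, against 4.34% of all genes) and 0 to 2 when each mouse was left out, with 2 (Psmb10 and Psme4, against 6.29%) without control antibody replicate 8 and Psmb10 alone without 3D6 replicates 2 or 5 or control antibody replicates 2 or 7 (against 4.12% to 5.39%). Members with a negative log2 fold change after Aβ42 were 11 with the atrial covariate, 22 without the hearts with an atrial score above 0 and 25 to 43 when each mouse was left out, and after 3D6 they were 13 with the mitochondrial covariate. The median over members after Aβ42 became 0.0554 with the atrial covariate and 0.00887 without the hearts with an atrial score above 0. After 3D6 it became 0.0404 with the mitochondrial covariate and ranged from -0.063 to 0.0123 over the mice left out, the latter without 3D6 replicate 1. The ratio of Psmb8 to Psmb5 differed by 0.0226 after 3D6 with 5 CPM added to both terms, and ranged from -0.096 to 0.0459 after 3D6 and from -0.121 to 0.0587 after Aβ42 over the mice left out, and that of Psmb9 to Psmb6 after Aβ42 ranged from -0.173 to 0.0385. Named genes whose log2 fold change after Aβ42 took the other sign had these values: with the atrial covariate Psma7 0.0319, Psmb10 0.0609, Psmb3 0.0889, Psmb5 0.035, Psmb7 0.108, Psmc3 0.0862, Psmc6 0.0915, Psmd10 0.0499, Psmd3 0.0331, Psmd4 0.0728, Psmd5 0.0347, Psme1 0.115, Psme4 0.0956 and Psmg4 0.112, in limma-voom Psmd5 0.00753, with the mitochondrial covariate Psmb1 -0.000277, without a filter on low counts Psmd5 0.00314, with scaling by total counts Psmb10 0.0027, Psmc6 0.00245, Psmd10 0.0162 and Psmd5 0.0278, without the hearts with an atrial score above 0 Psma5 0.0811, Psmb3 0.038, Psmb5 0.114, Psmb6 0.0393, Psmb7 0.0154, Psmb8 0.027, Psmc3 0.0835, Psmd5 0.0542, Psme1 0.0578, Psme3 0.0125 and Psmg4 0.318. Over the mice left out in turn, the log2 fold change after Aβ42 changed sign for Psma6 (-0.0239 to 0.0914), Psmb1 (-0.0224 to 0.0431), Psmb10 (-0.0734 to 0.0819), Psmb5 (-0.105 to 0.000393), Psmb8 (-0.153 to 0.0174), Psmc3 (-0.0791 to 0.0351), Psmc6 (-0.0709 to 0.0212), Psmd10 (-0.0798 to 0.0461), Psmd5 (-0.0406 to 0.0485), Psme2 (-0.0242 to 0.109) and Psmg3 (-0.265 to 0.0252). Named genes whose log2 fold change after 3D6 took the other sign had these values: in DESeq2 Psmd5 0.000319, with RLE factors Psmd5 0.00133, with the atrial covariate Psmb9 0.0534 and Psmd8 0.00946, in limma-voom Psmb7 -0.00149, with the mitochondrial covariate Psma5 0.06, Psma7 0.0945, Psmb1 0.0555, Psmb3 0.0902, Psmb6 0.0249, Psmb8 0.066, Psmb9 0.16, Psmc3 0.0217, Psmc6 -0.00537, Psmd4 0.0513, Psme1 0.0495, Psme2 0.00207, Psmg2 0.0129 and Psmg3 0.0792, without a filter on low counts Psmb9 0.00513, Psmd5 0.00501 and Psmd8 0.00524, with protein-coding transcripts only Psmb7 -0.00702, Psmb9 0.0867 and Psmg3 0.00582, with scaling by total counts Psma4 -0.0124, Psma6 -0.0368, Psmb7 -0.043, Psmc6 -0.0198, Psmd3 -0.00308 and Psme2b -0.0319, without the hearts with an atrial score above 0 Psmd5 0.0669, Psmd8 0.0308 and Psme1 0.0407. Over the mice left out in turn, the log2 fold change after 3D6 changed sign for Psma6 (-0.0184 to 0.048), Psma7 (-0.102 to 0.00914), Psmb3 (-0.15 to 0.0334), Psmb7 (-0.0388 to 0.0492), Psmb9 (-0.164 to 0.126), Psmc6 (-0.0315 to 0.0591), Psmd14 (-0.0117 to 0.0992), Psmd5 (-0.0672 to 0.0512), Psmd8 (-0.0339 to 0.0278), Psme1 (-0.0833 to 0.00621), Psme2b (-0.0816 to 0.198) and Psmg3 (-0.126 to 0.0291). The causes were not tested. No paired analysis was run, because the labels state no tie between a mouse of a group and a mouse of the other. The replicate numbers used here follow accession order. In the antibody study, the mice that share a replicate number, 1 from each group, also have consecutive mouse numbers. Whether these numbers mark a cage, litter or day is not stated. The values after 3D6 come from unpaired comparisons, and the effect of such a pairing on them was not tested.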
